A study of Mus musculus with 192 samples.

Results

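The replication-dependent histone genes encode the linker histone H1 and the core histones H2A, H2B, H3 and H4, and they lie in clusters of many near-identical copies. They were taken here as every gene whose symbol begins with Hist1h, Hist2h, Hist3h or Hist4h, which gave 70 of the 54752 genes of the deposited table. Of these, 6 encode H1, 20 H2A, 19 H2B, 12 H3 and 13 H4. The Hist1 cluster on chromosome 13 holds 56 of them, the Hist2 cluster on chromosome 3 holds 10, the Hist3 cluster on chromosome 11 holds 3, and Hist4h4 lies alone on chromosome 6. The annotation lists 67 as protein-coding and 3, Hist1h2aj, Hist1h2al and Hist3h2bb-ps, as pseudogenes.

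The samples came from C57BL/6 mice labelled as 12 weeks old and cover bone of the skull (temporal bone, TpB) and of the lower jaw (mandibular bone, MdB), lymphoid organs (thymus, Thy, and spleen, Spl), fat depots (white, eWAT, and brown, iBAT), liver (Liv), kidney (Kid) and cerebrum (Cbr). WT mice and Nrf2-KO mice, which lack the transcription factor Nrf2 in all cells through a disrupted Nfe2l2 gene, were either flown to the International Space Station and housed there for about a month (FL_WT, FL_KO) or kept in the same kind of cages on the ground (GC_WT, GC_KO). The ground experiment ran later and at another site, so flight cannot be told apart from place, period and return to Earth. Each group held 6 mice, with 5 in FL_KO since flight mouse 04 was left out, and MdB and Kid held 3 mice per group, with 2 in FL_KO of MdB.

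Histone synthesis is coupled to DNA replication, and the bulk of histone mRNA is made and used in S phase. These mRNAs end in a conserved stem-loop instead of a poly(A) tail, and the stem-loop is bound by the protein SLBP, which carries the message through processing, translation and decay. H1 binds the linker DNA between nucleosomes, and H2A pairs with H2B and H3 pairs with H4 to build the nucleosome core. Many replacement histones, such as H3f3a, but not all, are made throughout the cell cycle from polyadenylated mRNA. The thymus of a young mouse is rich in dividing thymocytes.

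The kind of library matters for these genes. Thymus libraries were made from total RNA depleted of ribosomal RNA, whereas libraries of the other 8 tissues were made from poly(A) RNA, so tissue and library kind cannot be told apart. The 23 thymus libraries held 8.01 M to 10.6 M reads (M, mega) assigned to genes and the 161 poly(A) libraries 12.95 M to 16.31 M. Nfe2l2 was lower in every Nrf2-KO library than in every WT library in 9 of 9 tissues, with ratios of the medians from 0.273 to 0.825. No marker of the 9 marker lists for the labelled tissues was at 0 in a group of its own tissue. In 3 flight libraries of iBAT, skeletal muscle markers stood far above the rest, as given beside the iBAT results.

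The stem-loop was searched in the annotated transcripts to see which gene models carry it, as a 16-base site of GG, any 3 bases, TTTT, any base, A, any 3 bases and CC with all 6 stem positions able to pair, on the transcribed strand. It was found in 44 of the 70 histone genes and in 35 of 58725 protein-coding transcripts of other genes (0.0596%). In 26 genes no such site lay within the annotated model. The stem letters followed the histone class. The form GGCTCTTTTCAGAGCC was found in 26 genes of the H1, H2A, H2B and H3 classes, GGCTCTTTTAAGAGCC in 6 genes of the H1, H2B and H3 classes and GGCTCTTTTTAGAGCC in 1 H2A gene. The H4 genes had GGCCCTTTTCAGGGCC in 7 cases, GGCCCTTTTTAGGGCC in 2 and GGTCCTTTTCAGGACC in 2. The sites of genes that the results below turn on are shown with 5 bases on each side, the stem-loop in capitals, as transcript sequence 5′ to 3′ on GRCm38.
Hist1h1c (chr13:23739507-23739532, + strand): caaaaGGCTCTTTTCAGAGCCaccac
Hist2h2aa2 (chr3:96239779-96239804, - strand): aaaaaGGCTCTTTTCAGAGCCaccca
Hist3h2a (chr11:58955167-58955192, + strand): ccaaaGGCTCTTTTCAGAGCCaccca
Hist3h2ba (chr11:58949344-58949369, + strand): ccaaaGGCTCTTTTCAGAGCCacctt
Hist1h4h (chr13:23531453-23531478, + strand): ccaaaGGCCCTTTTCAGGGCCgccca
Hist1h4i (chr13:22040961-22040986, - strand): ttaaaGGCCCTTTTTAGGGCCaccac
Hist2h4 (chr3:96262934-96262959, - strand): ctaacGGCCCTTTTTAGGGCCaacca
The annotated transcript ended within 100 bases of the stem-loop in 22 genes, among them Hist2h2aa2 (35 bases after it) and Hist1h4h (46 bases). In the other 22 it ran on by 100 bases or more, as in Hist1h1c (840 bases), Hist3h2a (1643 bases) and Hist2h4 (1257 bases), and in 13 genes an AATAAA polyadenylation signal followed the stem-loop. No site was found in the models of Hist1h2bc, Hist2h2be, Hist1h4k or Hist1h2bn, which says only that these letters are not within the annotated ends.

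Promoters were matched for 61 of the histone genes in RefSeq (GRCm38.p6), and the 250 bases before the start were searched on both strands for known elements of these genes. The octamer ATTTGCAT, which OCT1 binds, was found in 7 of 17 H2A promoters (41.2%) and 6 of 16 H2B promoters (37.5%), in none of the H1, H3 or H4 promoters, and in 1.61% of all promoters. The H2A and H2B counts share sites. In each of the pairs Hist1h2ae and Hist1h2bg, Hist1h2ah and Hist1h2bk, and Hist1h2aa and Hist1h2ba, the same octamer was counted for both genes. The AC box AAACACA was found in 5 of 6 H1 promoters (83.3%), against 6.22% of all promoters. CCAAT was found in every H1, H2A and H2B promoter matched, in 8 of 10 H3 promoters (80%), in 3 of 12 H4 promoters (25%) and in 34.5% of all promoters. TATAAA was found in 29 of 61 histone promoters (47.5%), against 13% of all. A pair of H1 and a pair of H2B promoters show the arrangement from 130 to 11 bases before the start, written 5′ to 3′ on the gene's strand with the motifs, on either strand, in capitals. These matches describe the letters only.
Hist1h1e (chr13:23622569-23622688, - strand): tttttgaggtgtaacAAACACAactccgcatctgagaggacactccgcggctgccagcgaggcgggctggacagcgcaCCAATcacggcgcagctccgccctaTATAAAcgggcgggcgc
Hist1h1b (chr13:21780636-21780755, - strand): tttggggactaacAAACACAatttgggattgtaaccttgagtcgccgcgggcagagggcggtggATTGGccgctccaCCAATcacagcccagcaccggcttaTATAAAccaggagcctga
Hist1h2bg (chr13:23571270-23571389, + strand): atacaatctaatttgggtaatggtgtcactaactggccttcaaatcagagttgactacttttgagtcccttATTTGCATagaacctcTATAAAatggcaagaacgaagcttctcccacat
Hist2h2bb (chr3:96269570-96269689, + strand): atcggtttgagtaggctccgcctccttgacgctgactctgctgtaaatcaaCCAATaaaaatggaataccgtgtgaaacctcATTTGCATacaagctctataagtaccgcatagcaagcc

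Near-identical copies limit what can be said about single genes. In 28 of the 70 genes, under 50% of the 76-base windows that a read could cover were unique among the transcripts, and in 7 genes under 10% were. RSEM divides reads that fit several copies by an estimate. Hist2h2aa2 and Hist2h2aa1 are an extreme case, with their levels taken almost entirely by the first name, and values of Hist2h2aa2 stand for the pair. Hist2h3c1 likewise had no unique window and was listed at 0.

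In thymus the histone genes together ranged from 32490 to 66020 TPM (transcript counts scaled for gene length and to the same total in each library) over the 23 libraries and took 1.46% to 3.16% of the assigned reads. In the poly(A) tissues their summed TPM was far lower, from 131 in a Spl library to 1216 in an eWAT library. A mean TPM of at least 100 was reached by 52 genes in thymus, and 66 genes had a higher mean TPM in thymus than in any poly(A) tissue. For 44 genes the thymus mean was over 100 times that of the highest poly(A) tissue, and the median ratio over the genes was 347.4. Hist1h2aj, Hist1h2bc and Hist2h2be were higher in a poly(A) tissue.

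**Figure D1:**
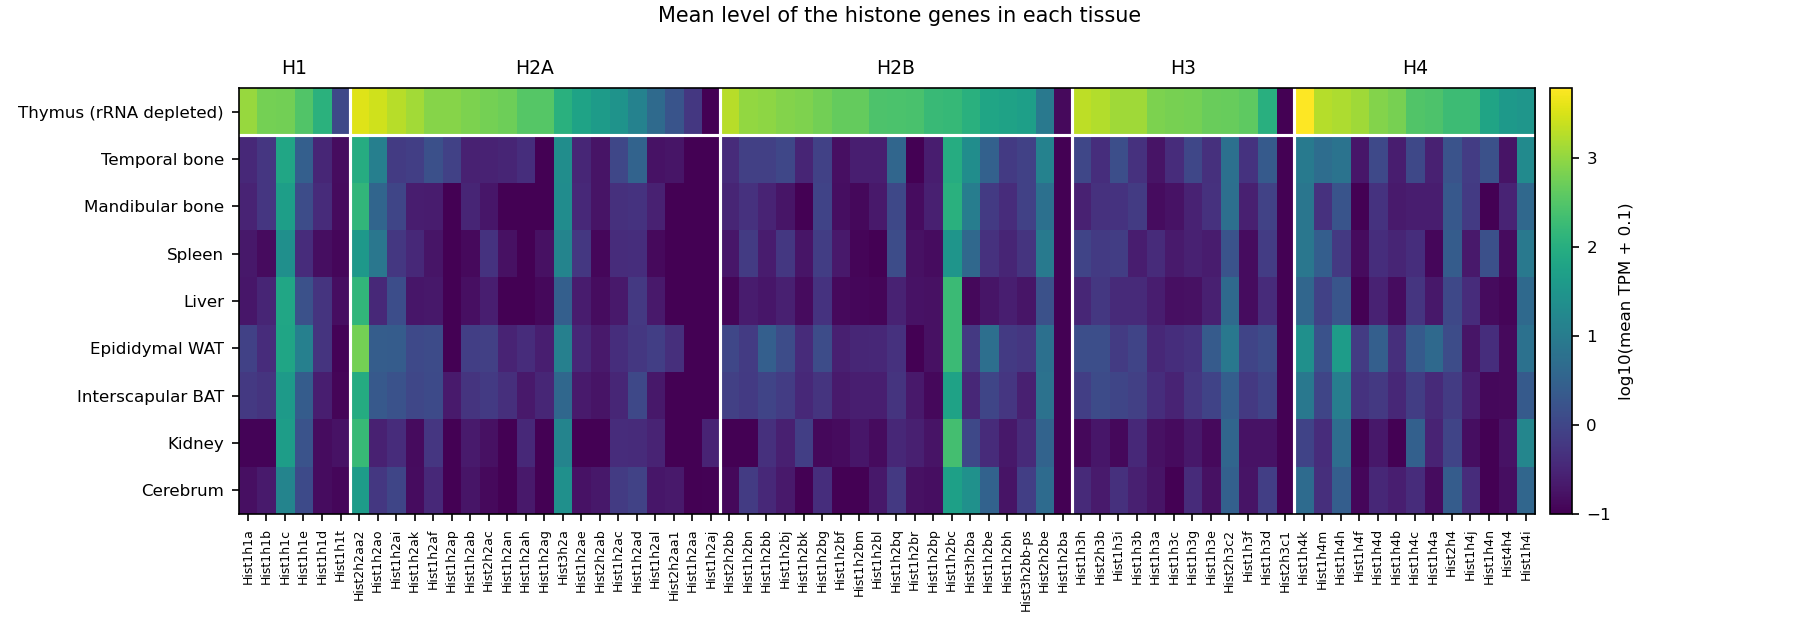
Mean TPM of each of the 70 histone genes (columns, by histone class and ordered by thymus level) in each tissue (rows), as log10(mean TPM + 0.1) in colour. The thymus row is bright for most genes, 52 of which average 100 TPM or more, and in the 8 poly(A) tissues the bright columns are those of a few genes such as Hist1h1c, Hist2h2aa2 and Hist1h2bc.

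All classes contributed in thymus. Summed over their genes, the mean TPM was 13830 for H2A, 13080 for H4, 9506 for H3, 8172 for H2B and 2676 for H1. The highest single level was that of Hist1h4k, an H4 gene whose model holds only the coding part in 312 bases, with a mean TPM of 6027. It was followed by the H2A genes Hist2h2aa2 (3491) and Hist1h2ao (2765), the H3 gene Hist1h3h (1975), and Hist1h2ai of H2A (1887). Of the read windows of these followers 0%, 6.9%, 6.5% and 10.7% were unique, so their order depends on how RSEM divided shared reads. Among the linker histones Hist1h1a was highest with 1081 TPM, ahead of Hist1h1b (592.9), Hist1h1c (591.1), Hist1h1e (297.9) and Hist1h1d (112.5). Hist1h1t, the testis H1, stayed between 0.1 and 2.49 TPM in thymus. Hist1h2aa, Hist1h2aj, Hist1h2ba and Hist2h3c1 were listed too low to be tested in thymus, with at most 1.19 TPM in a library. Of these, Hist2h3c1 and Hist1h2aj were listed at 0 and had 0% and 7.6% of their read windows unique. Their reads may therefore stand under the names of other copies.

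The poly(A) libraries showed a short list of histone genes. A mean TPM of at least 1 in each of the 8 poly(A) tissues was reached by 7 genes, namely Hist1h1c, Hist1h2bc, Hist1h4i, Hist2h2aa2, Hist2h2be, Hist2h3c2 and Hist3h2a. In none of these tissues was it reached by 38 genes, and 25 lay between. Of the genes that reached it in any poly(A) tissue, 13 belonged to the 22 whose model ran past the stem-loop, 8 to the 22 whose model ended near it and 11 to the 26 with no site in the model.

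Hist1h2bc and Hist2h2aa2 held the first places in the poly(A) tissues. The mean TPM of Hist1h2bc, an H2B gene, was 226.8 in Kid, 183.7 in Liv, 179.2 in eWAT and 30.7 in Spl, against 158.9 in thymus. Hist2h2aa2 had a mean TPM of 615.2 in eWAT, 167.9 in Kid, 139 in Liv and 35.74 in Spl, against 3491 in thymus. These levels order the tissues differently for the 2 genes. Hist1h1c, a linker histone gene expressed in many differentiated tissues, ranged from 14.53 TPM in Cbr to 66.78 TPM in TpB. Hist3h2ba and Hist3h2a, which are neighbours on chromosome 11, had their highest poly(A) levels in Cbr, at 26 and 25.52 TPM. In Liv, Kid and eWAT the 2 highest genes made up 77.2%, 79.6% and 77.8% of the summed histone TPM, and in thymus 20.1%.

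Histone mRNA was lower in the thymus of flight mice of both genotypes. In GC_WT the summed histone TPM was 53650 at the lowest, 57390 at the median and 66020 at the highest, and in FL_WT it was 32700, 45760 and 50990. In GC_KO the same values were 40120, 52160 and 57680, and in FL_KO 32490, 34420 and 35410. Every flight library of these groups lay below every ground library of its genotype, and the spread was widest in FL_WT, where replicates 5 and 6 were lowest. The thymus library of flight mouse 04, an Nrf2-KO mouse left out of FL_KO, summed to 47460 TPM, above the other FL_KO libraries and above 1 of the 6 GC_KO libraries. With it the Nrf2-KO groups overlapped, and the log2 ratio of the summed TPM was -0.48 in place of -0.57. The FL_KO ranges and overlaps below are without this mouse. In bulk tissue fewer cells of a type and less RNA per cell cannot be told apart.

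**Figure D2:**
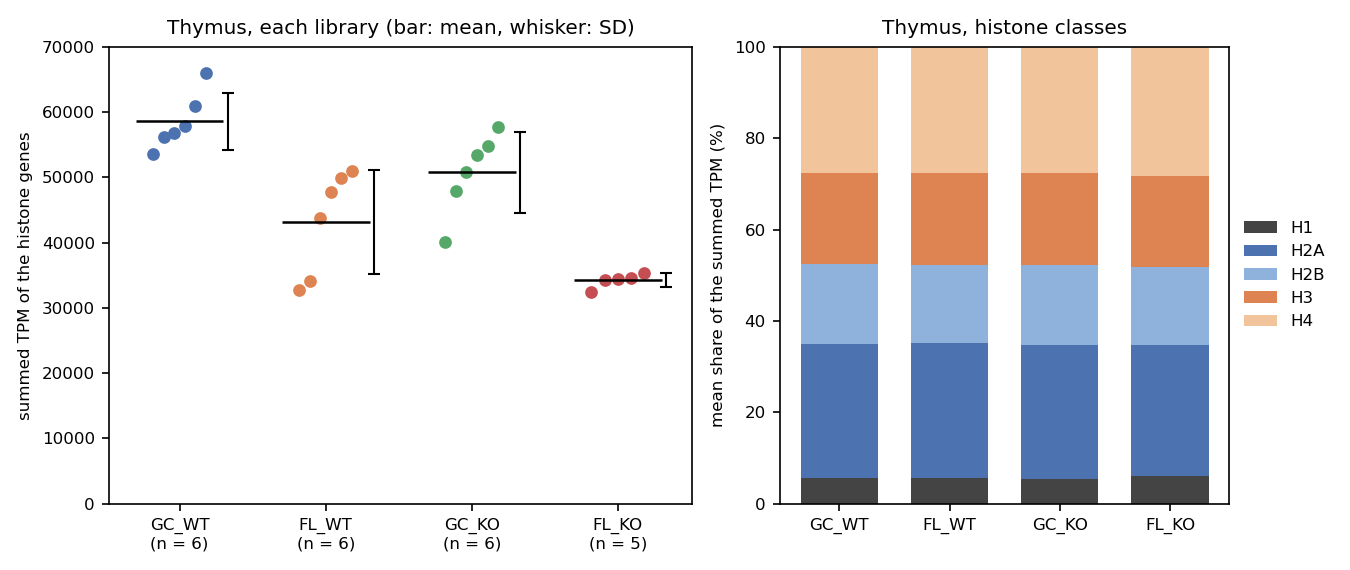
Left, summed TPM of the 70 histone genes in each thymus library (points), by group, with the group mean (bar) and SD (whisker), without flight mouse 04; right, mean share of the histone classes in that sum (%), where H2A holds 28.7% to 29.5% in each group. The 6 FL_WT libraries (32700 to 50990) lie below the 6 GC_WT libraries (53650 to 66020), and the 5 FL_KO libraries (32490 to 35410) lie below the 6 GC_KO libraries (40120 to 57680).

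Tested gene by gene with edgeR, 62 of the 66 histone genes tested in thymus fell in FL_WT against GC_WT and none rose, at an adjusted p under 0.05. Over all genes tested in that comparison, 11% were called lower. In FL_KO against GC_KO, 64 of the 66 fell and none rose, with 18.9% of all genes called lower. The changes were of like size across genes. The median log2 fold change was -0.66 in WT mice, so that the level fell by 36.7%, with quartiles of -0.71 and -0.59, and 61 of 66 genes lay within 0.2 of the median. In Nrf2-KO mice the median was -0.81, a level that fell by 43.1%, and 58 genes lay within 0.2 of it. Over all genes tested the medians were 0.02 and -0.01. Of the genes that fell, 62 did so in both genotypes. The groups did not overlap in TPM for 30 of the 65 genes that averaged 1 TPM or more in WT mice, where 0.578% of all such genes were lower without overlap, and for 42 of 65 in Nrf2-KO mice, against 0.716%. With flight mouse 04 in FL_KO, 2 of 65 genes did not overlap in Nrf2-KO mice, against 0.108% of all genes, and edgeR called 63 of the 66 histone genes lower and none higher. On the TPM scale the median gene was 0.20 (WT) and 0.18 (Nrf2-KO) higher in flight on the log2 scale, and the log2 ratio of the summed histone TPM was -0.44 and -0.57.

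**Figure D3:**
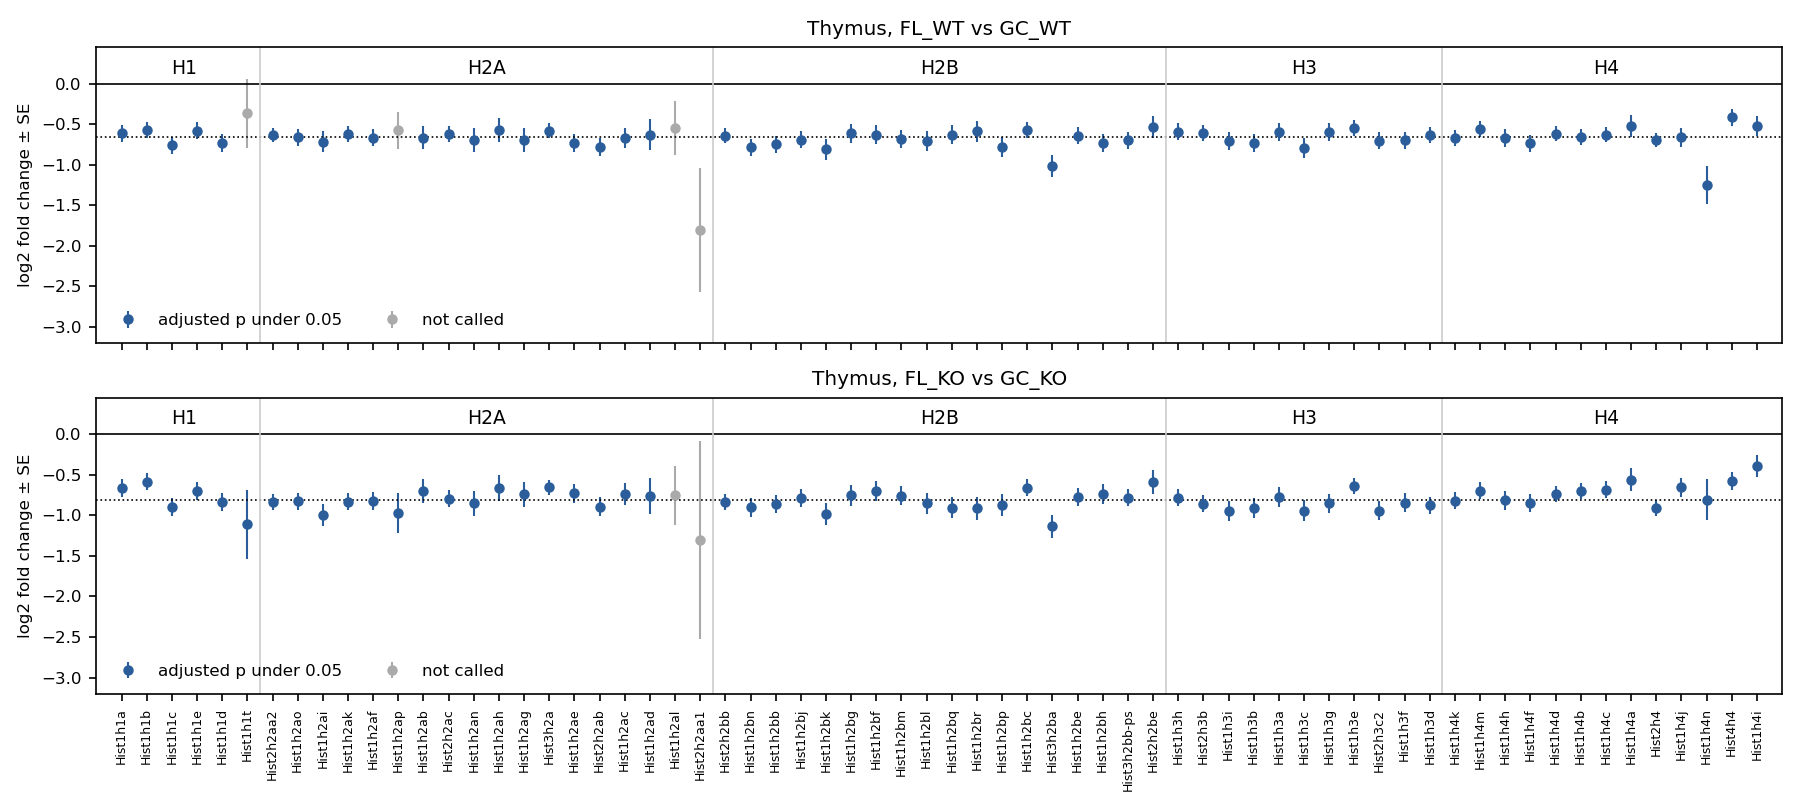
Log2 fold change of each histone gene tested in thymus, flight against ground, by histone class and genotype, with the SE (whiskers), called genes in blue and the median over all histone genes as a dotted line. All 66 genes lie below 0 in both genotypes, and the medians over all histone genes are -0.66 in WT and -0.81 in Nrf2-KO mice.

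All 5 classes took part. In WT mice 5 of 6 H1 genes, 15 of 18 H2A, 18 of 18 H2B, 11 of 11 H3 and 13 of 13 H4 genes fell, with class medians from -0.60 (H1) to -0.69 (H2B). In Nrf2-KO mice 6 of 6 H1, 16 of 18 H2A, 18 of 18 H2B, 11 of 11 H3 and 13 of 13 H4 genes fell, with medians from -0.70 (H4) to -0.86 (H3). The clusters also moved together. Of the Hist1 genes 50 of 53 fell in WT mice and 52 of 53 in Nrf2-KO mice, of the Hist2 genes 8 of 9 in each genotype, and the 3 Hist3 genes and Hist4h4 fell in both. By kind of gene model the medians were -0.68 and -0.81 for models that end near the stem-loop, -0.64 and -0.74 for models that run past it and -0.62 and -0.83 for models without a site. Restricted to genes with at least 50% unique read windows, 38 of 40 fell in WT mice and 39 of 40 in Nrf2-KO mice.

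Most linker histone genes fell in flight. Hist1h1c had 665, 762.5 and 884.5 TPM (lowest, median, highest) in GC_WT and 379.5, 564.9 and 614.5 in FL_WT, without overlap, and it fell by 0.76 ± 0.11 (log2, SE; edgeR adjusted p = 2.42e-05). In GC_KO it had 468.8, 646.5 and 731.9 TPM and in FL_KO 375.8, 414.4 and 440.8, again without overlap, and it fell by 0.90 ± 0.11 (adjusted p = 2.17e-06). Hist1h1a, the most abundant H1 gene here, went from 1166, 1351 and 1519 TPM in GC_WT to 752.9, 1089 and 1200 in FL_WT, where the highest flight library passed the lowest ground library, and fell by 0.62 ± 0.11. Hist1h1e and Hist1h1d, both replication-dependent somatic H1 genes whose promoters carry the AC box, fell by 0.58 and 0.73 in WT and by 0.71 and 0.84 in Nrf2-KO mice. Hist1h1b fell by 0.57 and 0.59. Hist1h1t, near its detection limit, had a log2 change of -0.37 ± 0.43 in WT mice (edgeR adjusted p = 0.567) and fell by 1.11 ± 0.43 in Nrf2-KO mice (adjusted p = 0.0417).

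Among the core histones, Hist3h2ba, an H2B gene of the Hist3 cluster, had the smallest adjusted p in WT mice. Its TPM was 121.1, 152.7 and 155.6 in GC_WT and 60.89, 85.69 and 122.5 in FL_WT, and the ranges touched only through 1 low ground library. It fell by 1.02 ± 0.13 in WT and by 1.14 ± 0.14 in Nrf2-KO mice (edgeR adjusted p = 1.3e-05 and 2.56e-06). Hist2h4, an H4 gene, had 200.6, 234.8 and 285 TPM in GC_WT, 133.3, 181.9 and 195.9 in FL_WT, 168.8, 209.8 and 267.3 in GC_KO and 127.8, 136.3 and 141 in FL_KO. The ranges did not overlap in either genotype, and Hist2h4 fell by 0.70 ± 0.09 and by 0.91 ± 0.10 (edgeR adjusted p = 1.37e-05 and 4.67e-07), the latter the smallest of the histone genes in Nrf2-KO mice.

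Other core genes named for a small adjusted p moved by like amounts. Hist1h2bn went from a median of 1266 TPM in GC_WT to 929.5 in FL_WT and from 1131 in GC_KO to 714.3 in FL_KO, without overlap in either genotype. Hist1h2bb went from 1178 to 890.7 and from 1034 to 659.8 TPM, also without overlap. In WT mice Hist2h2ab fell by 0.78, Hist1h4f by 0.74 and the pseudogene Hist3h2bb-ps, whose reads may come from its relatives, by 0.70. In Nrf2-KO mice Hist2h2aa2 fell by 0.84, Hist2h3c2 by 0.94, Hist2h2bb by 0.83, Hist1h3d by 0.88 and Hist2h3b by 0.86. All of these were past the threshold.

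The most abundant genes followed the same course. Hist1h4k had 6801, 7162 and 8395 TPM in GC_WT and 4173, 5596 and 6642 in FL_WT, without overlap, and fell by 0.67 ± 0.10 and, in Nrf2-KO mice, by 0.82 ± 0.11. Hist2h2aa2 fell by 0.63 in WT mice, from 3891, 4168 and 4815 to 2604, 3377 and 3777 TPM. Hist1h2ao (0.66 and 0.83), Hist1h3h (0.59 and 0.79), Hist1h2ai (0.72 and 0.997), Hist1h4m (0.56 and 0.70) and Hist1h4h (0.67 and 0.82) fell by the log2 amounts given for WT and Nrf2-KO mice. Hist1h4i, an H4 gene that was also detected in all 8 poly(A) tissues, fell by 0.52 ± 0.12 and 0.40 ± 0.13, and Hist4h4, the H4 gene of chromosome 6, by 0.42 ± 0.11 and 0.58 ± 0.11.

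Between genotypes 2 histone genes of the thymus passed the test, both in flight. On the ground, none of the 66 histone genes was called between GC_KO and GC_WT with edgeR, where 3.81% of all genes were, and 7 had an unadjusted p under 0.05. DESeq2 also called none, and the median log2 difference was -0.12, with 5 of the 66 genes above 0. In TPM, 5 of 66 histone genes averaging 1 TPM or more were lower in GC_KO without overlap, against 0.966% of all genes, and 0 were higher. On that scale the median gene was 0.09 lower in GC_KO (log2). In flight, Hist1h3d (-0.41 ± 0.11) and Hist1h2ao (-0.40 ± 0.11) were lower in FL_KO than in FL_WT with edgeR adjusted p of 0.0364 and 0.0414, and 35 genes had an unadjusted p under 0.05, with a median of -0.25. Of all genes, 1.34% were called lower. Hist1h2ao had 6.9% of its read windows unique and Hist1h3d 77.9%. The count of 2 was not stable. It became 13 without FL_WT replicate 5 and 16 without FL_WT replicate 6, and it was 0 when any of 8 other flight libraries was left out or flight mouse 04 was included. The fall in flight was larger in Nrf2-KO than in WT mice for 62 of 66 genes. The difference of the flight responses between genotypes was past the threshold for none of the histone genes and for no gene in thymus, no histone gene had an unadjusted p under 0.05, DESeq2 called none of them either, and its median was -0.13.

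Genes with related work were read beside the histone genes in the thymus. The mitosis list, which holds genes of late G2 and M phase, fell in 20 of 20 genes in both genotypes, with medians of -0.57 and -0.63. In WT mice Prc1, a spindle midzone protein, fell by 0.73, Cdc20, an activator of the anaphase-promoting complex, by 0.69, Birc5 by 0.64 and Aurka by 0.60. Cdc20, Prc1, Ccnb2 and Plk1 fell by 0.85, 0.76, 0.75 and 0.67 in Nrf2-KO mice, and Mki67, the proliferation marker, by 0.40 and 0.49. The DNA replication list fell in 7 of 35 genes in WT mice and 17 of 35 in Nrf2-KO mice, with none higher and medians of -0.15 and -0.21. Of all genes, 11% and 18.9% were called lower. Rrm2, a subunit of ribonucleotide reductase, fell by 0.53 and 0.55, Cdk2 by 0.34 and 0.38, and Prim1 by 0.27 and 0.29. Tyms (-0.26, edgeR adjusted p = 0.0575, in WT) fell by 0.45 in Nrf2-KO mice.

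**Figure D4:**
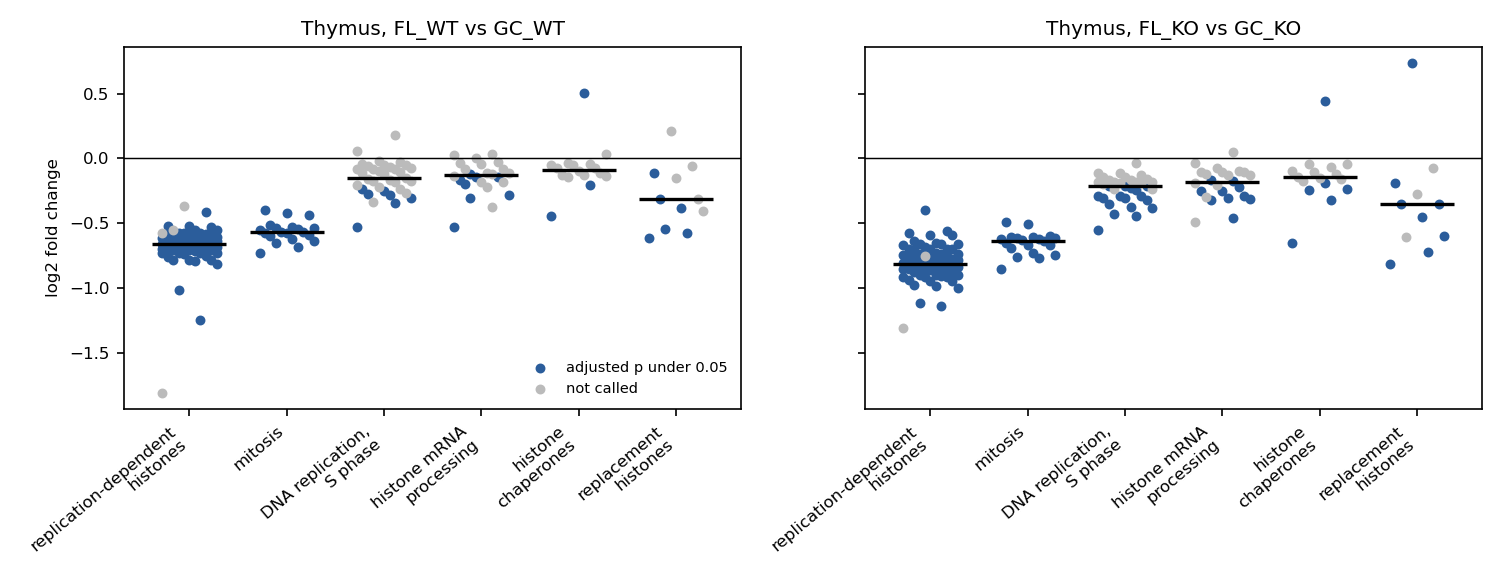
Log2 fold changes in thymus, flight against ground, of the histone genes and of the related gene lists, for WT and Nrf2-KO mice, with list medians. The median of the histone genes (-0.66 and -0.81) lies below those of the mitosis (-0.57 and -0.63), replacement histone (-0.31 and -0.35) and replication (-0.15 and -0.21) lists.

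Genes that process histone mRNA or carry histones moved less. Of 24 processing genes tested 8 fell in WT and 10 in Nrf2-KO mice, with none higher and medians of -0.13 and -0.18. Slbp itself fell by 0.31 ± 0.08 and 0.32 ± 0.09. Eri1, the exonuclease that trims the histone mRNA end, fell by 0.20 and 0.29, Zfp473, a component of the processing complex, by 0.53 and 0.46, Ncbp1, a subunit of the cap-binding complex, by 0.14 and 0.22, Cstf2 by 0.17 and 0.31, and Lsm4 by 0.14 and 0.25. Of 16 chaperone genes 2 fell and 1 rose in WT mice, and 5 fell and 1 rose in Nrf2-KO mice. Over all genes tested in thymus, 11% were called lower in WT and 18.9% in Nrf2-KO mice. Asf1b, an H3-H4 chaperone of proliferating cells, fell by 0.44 and 0.65, and Ipo4, which imports histones into the nucleus, rose by 0.51 and 0.44. Of the 11 replacement histone genes 6 fell in WT mice, while 7 fell and 1 rose in Nrf2-KO mice. H2afx fell by 0.57 and 0.81, Cenpa, the centromeric H3, by 0.61 and 0.72, H2afv by 0.54 and 0.59, and H3f3a by 0.39 and 0.45. H2afz had a change of -0.31 in WT mice (edgeR adjusted p = 0.0585) and fell by 0.35 in Nrf2-KO mice.

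Markers of cell types also changed in the thymus, those of T cells downward like the histone genes and those of stroma and B cells mostly upward. Of 6 T cell markers 4 fell in WT and 6 in Nrf2-KO mice, and of 8 thymic stroma markers 3 rose in WT and 4 in Nrf2-KO mice, with none lower. Of 5 B cell markers 1 rose in WT and 4 in Nrf2-KO mice. Over all 16307 genes tested, 1925 rose in WT and 3150 in Nrf2-KO mice. The summed TPM of the T cell markers was 2184 to 2549 in GC_WT and 1972 to 2349 in FL_WT, and 1568 to 2397 in GC_KO and 1556 to 1777 in FL_KO. That of the stroma markers was 177.2 to 282.4 and 243 to 355.3 in WT, and 127.9 to 256.6 and 249.7 to 295 in Nrf2-KO mice. No marker of these lists was at 0 in a group. Their part in the histone result was not tested.

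In the 8 poly(A) tissues calls of histone genes were few in number and are given beside the shares of all pairs. Over 137 gene and tissue pairs tested, 1 rose and 3 fell in FL_WT against GC_WT, where 2.11% and 2.32% of all pairs were called higher and lower with edgeR, and 18 had an unadjusted p under 0.05. In FL_KO against GC_KO 1 rose and 7 fell, with 2.48% and 2.59% of all pairs. Falls thus made up a larger share of the histone pairs than of all pairs in Nrf2-KO mice, but all 7 were in iBAT. In that tissue 16.6% of all genes were called lower, and the 3 falls in WT mice were also there. Between genotypes 2 pairs were higher in GC_KO than in GC_WT (0.595% of all pairs) and 1 in FL_KO than in FL_WT (0.394%). The difference of flight responses was past the threshold for none with edgeR or DESeq2, and 8 pairs had an unadjusted p under 0.05. No histone gene was called in Spl, TpB, MdB or Cbr. In Spl, the lymphoid organ measured with poly(A) libraries, none of the 20 mitosis genes or 35 replication genes was called in either flight comparison, with medians of -0.28 and -0.40 for mitosis.

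**Figure D5:**
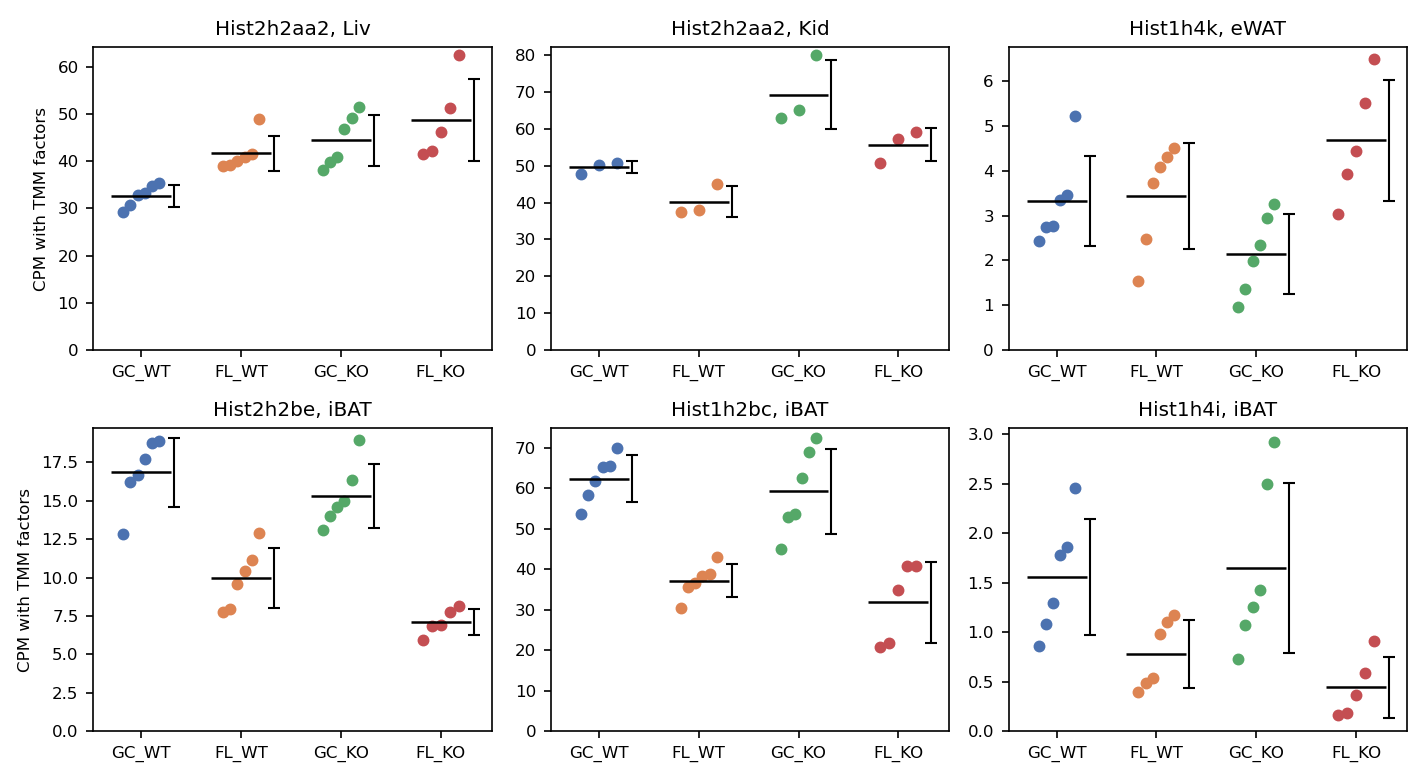
CPM, scaled by TMM, in each library (points) for 6 pairs of histone gene and poly(A) tissue with a call, by group, with the mean (bar) and SD (whisker). Hist2h2be in iBAT lies between 12.86 and 18.96 in the ground libraries and between 5.954 and 12.9 in the flight libraries.

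Brown adipose tissue held 10 of the 12 flight calls. Of the 22 histone genes tested there 3 fell in WT mice (13.6%), where 10.3% of all genes were called lower, and 7 fell in Nrf2-KO mice (31.8%), against 16.6%. The median log2 change was -0.40 and -0.77, and that of all genes 0.02 and 0.04. Hist2h2be, an H2B gene whose model is 2620 bases long, had 12.86, 17.21 and 18.88 CPM (counts scaled to library size with TMM factors, not for gene length) in GC_WT and 7.785, 10 and 12.9 in FL_WT, and 13.09, 14.8 and 18.96 in GC_KO against 5.954, 6.921 and 8.17 in FL_KO. The Nrf2-KO groups did not overlap, and it fell by 0.76 ± 0.12 in WT and 1.11 ± 0.13 in Nrf2-KO mice (edgeR adjusted p = 0.000172 and 1.86e-06). Hist1h2bc went from 53.6, 63.48 and 69.96 CPM to 30.46, 37.51 and 42.9 in WT and from 45.07, 58.08 and 72.3 to 20.75, 34.79 and 40.89 in Nrf2-KO mice, without overlap in either, and fell by 0.75 and 0.90. Hist3h2a fell by 0.64 and 0.52. In the Nrf2-KO comparison Hist1h4i (-1.87 ± 0.44), Hist1h2be (-0.81), Hist1h4h (-0.90) and Hist2h2aa2 (-0.34) were also called lower, and no difference of the flight responses between genotypes passed the test. The summed histone TPM overlapped in both genotypes, with 216.1 to 362.4 in GC_WT, 214.6 to 276.4 in FL_WT and 200.9 to 332.9 in GC_KO. In FL_KO it was 140.4 and 159.6 in replicates 1 and 2, and 250.8 to 326.9 in the others. Summed as CPM, it was 173.75 to 240.8 in GC_WT and 125.69 to 166.26 in FL_WT, without overlap. In Nrf2-KO mice the CPM sum was 162.51 to 235.56 on the ground and 76.26 to 171.63 in flight, with overlap. On the TPM scale the median gene of iBAT was 0.28 and 0.39 higher in flight (log2), and Hist2h2aa2 turned to 0.10 in Nrf2-KO mice with limma on log2(TPM + 1). That fit took genes that averaged 5 TPM or more in a group, and of the histone genes in it Hist1h2bc (-0.43 and -0.50) and Hist2h2be (-0.40 and -0.56) were called in each genotype.

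Other genes and cells moved in the same iBAT libraries. Of the replacement histone genes 4 of 11 fell in WT and 5 of 11 in Nrf2-KO mice, and among these H1f0, the linker histone of resting cells, fell by 0.70 in both and H3f3a by 0.37 and 0.36. Of 34 DNA replication genes 4 fell in WT mice, and 3 fell and 1 rose in Nrf2-KO mice, against 10.3% and 16.6% of all genes called lower. Uhrf1, which is needed to copy DNA methylation, fell by 1.58 and 0.84, and Rrm1 by 0.50 and 0.75. Of 15 chaperone genes 2 rose in WT and 4 in Nrf2-KO mice with none lower. Of 23 processing genes 1 rose and 3 fell in WT mice, and 6 rose and 3 fell in Nrf2-KO mice. Over all 13574 genes tested in iBAT, 1199 rose in WT and 2303 in Nrf2-KO mice. None of the 5 mitosis genes tested was called. Skeletal muscle markers summed to 3496 and 7137 TPM in FL_WT replicates 8 and 6 and to 8757 TPM in FL_KO replicate 11, and to 0.93 to 76.11 TPM in the other iBAT libraries. Without FL_KO replicate 11, 10 histone genes were called lower in Nrf2-KO mice, and without either FL_WT library the WT count stayed at 3.

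Hist2h2aa2 was the histone gene called in liver and kidney. In Liv it had 29.23, 33.03 and 35.44 CPM in GC_WT, 39.03, 40.52 and 49.01 in FL_WT and 38.15, 43.86 and 51.43 in GC_KO, so that GC_WT lay below both other groups without overlap. It rose by 0.35 ± 0.10 in FL_WT (edgeR adjusted p = 0.0464; 1.53% of all genes called higher) and was 0.44 ± 0.10 higher in GC_KO than in GC_WT (adjusted p = 0.00881; 0.938%). FL_KO held 41.42 to 62.49 CPM and did not differ from GC_KO past the threshold (0.13 ± 0.10, adjusted p = 0.587). The rise in WT mice was lost in 12 of the 23 fits that left out a library.

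In Kid the CPM of Hist2h2aa2 was 47.77, 50.14 and 50.8 in the 3 GC_WT mice, 62.95, 65 and 80.01 in GC_KO, 37.48, 38.05 and 45.09 in FL_WT and 50.73, 57.35 and 59.15 in FL_KO. Nrf2-KO lay above WT without overlap both on the ground and in flight. The differences were 0.48 ± 0.10 and 0.47 ± 0.10 (edgeR adjusted p = 0.0298 and 0.0363), with 0.569% and 0.509% of all genes called higher, and of the 12 fits that left out a library 4 and 7 lost the call. Its near-identical partner Hist2h2aa1, with 11.2% of its read windows unique, was listed at 0 in both organs. The summed histone TPM of Kid was 449.1 to 484.9 in GC_WT and 567.4 to 595.9 in GC_KO. In FL_WT it was 418.3 to 440.6 and in FL_KO 473.4 to 543.6. Flight lay below ground and Nrf2-KO above WT without overlap. Of histone genes averaging 1 TPM or more, 6 of 11 were higher in GC_KO than GC_WT without overlap, against 9.08% of all genes. Between flight groups it was 1 of 10 (9.78%). In flight 5 of 12 were lower in Nrf2-KO mice (3.22%) and 2 of 10 in WT mice (3.13%).

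White adipose tissue, with the highest poly(A) level of these genes, showed 1 call with edgeR. DESeq2 and either limma fit also called Hist1h2be and Hist1h4a higher in FL_KO than in GC_KO. Hist1h4k had 0.963, 2.16 and 3.26 CPM in GC_KO and 3.04, 4.43 and 6.49 in FL_KO, and rose by 1.13 ± 0.30 (edgeR adjusted p = 0.0229), where 3.73% of all genes were called higher. In GC_WT it had 2.44, 3.06 and 5.22 and in FL_WT 1.53, 3.92 and 4.52 CPM, which overlapped (0.05 ± 0.28, adjusted p = 0.938). Of the 24 histone genes tested in eWAT 18 lay above 0 in Nrf2-KO mice and 8 had an unadjusted p under 0.05, where 47.2% of all genes lay above 0 and 23.3% had such a p. In WT mice 14 lay above 0 and 1 had an unadjusted p under 0.05, against 49.2% and 26.9%. The DNA replication list had 2 of 35 genes higher and none lower in each genotype, with medians of 0.25 in WT and 0.01 in Nrf2-KO mice, and none of the 20 mitosis genes was called. E2f1 and Pola2, which act in entry to and start of DNA replication, rose there by 0.66 in WT mice and by 0.60 and 0.50 in Nrf2-KO mice.

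In liver the linker histone genes varied widely between mice. Their summed TPM in Liv FL_KO was 37.94 and 24.24 in replicates 1 and 2, and 129.5 to 153.1 in replicates 9, 11 and 12. In Liv GC_KO it was 20.53 to 34.54 in replicates 1, 2 and 4, and 56.41 to 68.25 in replicates 9, 11 and 12. A like split was seen in iBAT FL_KO, with 11.87 and 17.8 in replicates 1 and 2 and 59.76 to 68.01 in the others. The cause was not tested. Hist1h1c had 32.15, 45.71 and 68.45 CPM in GC_WT, 31.43, 83.34 and 131 in FL_WT, 20.53, 43.33 and 70.69 in GC_KO and 22.62, 109.3 and 124.8 in FL_KO. The flight groups reached higher than the ground groups and overlapped with them, and the log2 differences of 0.77 ± 0.38 and 0.94 ± 0.39 did not pass the test (edgeR adjusted p = 0.308 and 0.237). Hist1h1d in Liv of Nrf2-KO mice had 0.144, 1.2 and 3.04 CPM on the ground and 0.409, 3.11 and 9.84 in flight. With the mouse number as a block, since same-numbered Nrf2-KO liver libraries deviated together, it rose by 1.61 (edgeR adjusted p = 0.0468), and without the block its change was 1.75 ± 0.71 (adjusted p = 0.221).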

How the data were processed

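RNA of 192 samples was sequenced as 76-base single reads. Per the labels the reads were mapped to mm10 with STAR 2.6.1 and quantified with RSEM 1.3.1, which shares reads that fit several genes between them. The expected counts deposited by the authors are RSEM estimates per gene with no normalization. The TPM values deposited by the authors are scaled per length to the same total in each sample. The table's gene models are GENCODE vM20, and 192 columns of FPKM were not used. Libraries were strand-specific, but the strand setting of the counting is not given in the sources used here, so overlapping genes on opposite strands may share reads.

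The histone genes and the gene lists were chosen with earlier results of these data known. Flight mouse 04, with intestinal bleeding, was left out, which left 184 libraries. Expected counts were rounded and fitted per tissue over the 4 groups in R 4.3.3 with edgeR 4.0.16 (filterByExpr, TMM, quasi-likelihood test), and p-values were adjusted over all genes of the tissue by the Benjamini-Hochberg method, with calls under 0.05. The study names DESeq2 for its own tests. The fits were tested on simulated data. CPM were scaled by TMM factors, and ± is the SE of a log2 fold change. Stem-loops and read windows were searched in GENCODE vM21 transcripts on GRCm38, where 99.9% of the identifiers were found, and promoters came from RefSeq. P-values measure the spread between mice.

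Named in thymus were up to 8 histone genes per direction and contrast with the smallest adjusted p, and in each poly(A) tissue up to 4. The H1 genes, the 10 genes highest in GC_WT thymus and the 3 highest in GC_WT of each poly(A) tissue were also named, as were up to 4 called genes per list and Slbp, Mki67 and H2afz. Genes called in 3 or more tissues in 1 contrast were to be named, and there were none. Other histone genes given with values, such as Hist4h4, the stem-loop and promoter examples and the genes not tested, were chosen after their values were seen.

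The calls were repeated with DESeq2 1.42.0 and, for genes that averaged 5 TPM or more in a group, with limma 3.58.1 on log2(TPM + 1) or log2(TPM + 0.1). Further fits used RLE factors, no filter, mouse 04, the contrast's groups alone, a block for the mouse number, a block for the library set (TpB), or left out single mice. For summed levels TPM over protein-coding nuclear genes and CPM were used. Mouse numbers come from the labels, and equal numbers in flight and on the ground mark different mice. The correlation of their deviations from the group means was above 0.1 in every pair only for Nrf2-KO Liv among groups with 3 or more pairs (5 of 5, 0.222 to 0.369), and in thymus for 0 of 6 WT and 1 of 5 Nrf2-KO pairs. Genes with near-identical copies are uncertain singly.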

Additional observations from a re-analysis of the deposited data

Results flagged for a closer look

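Among 216 groups of 4 to 10 mice checked, 28 of summed levels and 188 of named histone genes, 6 held a library far from the others, and chance alone flags about 1 in 20 groups. The summed histone TPM of FL_KO replicate 1 in Spl was 138.3, below 167.4 to 174.6 in the others, and that of GC_WT replicate 8 in iBAT was 362.4, above 216.1 to 257.5. Hist1h2bc in TpB of FL_WT replicate 8 stood at 147 TPM, against 81.76 to 101.5.

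In thymus, Hist1h4m in FL_KO replicate 2 was at 1414 TPM (others 1284 to 1316), Hist2h3c2 in GC_WT replicate 8 at 718.8 TPM (502 to 582.8) and Hist3h2ba in GC_WT replicate 7 at 121.1 TPM (150.8 to 155.6).

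Flight mouse 04, which the comparisons leave out, had a summed histone TPM of 182.3 in Spl and 1043 in eWAT, above the ranges of GC_KO (165.2 to 181.9 and 711.7 to 1026). The eWAT value lay within the other FL_KO libraries (1012 to 1216) and the Spl value above them (138.3 to 174.6). In Thy its sum of 47460 was above the other FL_KO libraries (32490 to 35410) and within GC_KO (40120 to 57680).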

How the results depend on the processing

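The flight counts in thymus were 62 (WT) and 64 (Nrf2-KO), and lay between 62 and 64 and between 63 and 65 when 1 library was left out. Restricted to genes with at least 50% unique read windows, an alternative chosen after seeing the data, they were 38 and 39, since fewer genes were counted. For FL_KO against FL_WT in thymus the count of 2 became 5 with DESeq2, 1 with the unique genes, and 0 with either limma fit, with mouse 04 or with only the groups of the contrast, and ran from 0 to 16 with 1 library left out; the cause was not tested. GC_KO against GC_WT in thymus gave 1 with only its groups, and 0 with any library left out.

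In the poly(A) tissues the 4 flight calls in WT mice became 2 with limma at a pseudocount of 0.1 and 7 with the replicate block, and 3 to 4 with 1 library left out. The 8 in Nrf2-KO mice became 5 with each limma fit, and ran from 5 to 12 with 1 library left out. DESeq2 added Hist1h2be and Hist1h4a in eWAT (higher in flight) and Hist1h4i in Kid (lower). The genotype counts were 1 to 3 on the ground (2 reported) and 0 to 2 in flight (1 reported) with 1 library left out, the latter 2 with DESeq2 or mouse 04 and 0 with only its groups. The interaction count was 0 with any library left out. Among groups with 3 or more pairs the numbers paired the mice in Nrf2-KO Liv only, and the block elsewhere is a fit on shared numbers. It gave 62 and 63 calls in thymus. The log2 ratio of summed histone levels in thymus went from -0.44 to -0.66 (WT) and from -0.57 to -0.81 (Nrf2-KO) with CPM and TMM factors, and between ground groups from -0.20 to -0.05 with TPM over protein-coding genes.

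Of 1240 alternatives for the H1 genes in thymus and the histone genes named for a small adjusted p, 1174 kept direction and call, 66 lost the call and 0 changed sign. Outside that set Hist2h2aa2 in iBAT of Nrf2-KO mice, called lower at -0.34, turned to 0.10 with either limma fit. Summing Hist2h2aa1 with Hist2h2aa2 was also added after seeing the data. Low counts limit the tests of single histone genes in the poly(A) tissues, where 38 had a mean TPM under 1 throughout, and the cause of these levels was not tested.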
